A study of Mus musculus with 6 samples.

Results

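Of 18193 genes with a probe set of their own on the array, 6 are described here because their probe sets gave unequal differences between lungs of 2 kinds of F1 mice: Pdxdc1, Camk2n1, Nbeal1, Prrc2c, Adi1 and Paip1. A probe set is a group of short oligonucleotides on the array designed against 1 stretch of transcript, and a gene can have several. All 23 probe sets that the platform annotation assigns to 1 of these symbols alone were taken, out of 45037 probe sets, with no filter on intensity. They were chosen because their AKR_F1 minus DBA_F1 differences varied in sign or size between probe sets. Those differences are therefore given here as a description. Some of these probe sets are said below to be called in a fit over the whole array. For genes chosen this way such calls are no independent support.

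RNA from whole lung of adult females was hybridised to 6 Affymetrix arrays. The AKR_F1 group (3 arrays) held (AKR/J x FVB/NJ)F1 mice and the DBA_F1 group (3 arrays) (DBA/2J x FVB/NJ)F1 mice. The parents belong to inbred strains. Both groups therefore have an FVB/NJ chromosome set in common and differ in the set inherited from the other parent. The mice were killed under Avertin anaesthesia and no other treatment is named in the labels, which leave unsaid if the 3 arrays of a group are 3 animals. Values are log2 signals and 1 unit is a 2-fold change. In whole lung, fewer cells of a type and less RNA per cell cannot be told apart. Nor does the difference of a probe set have to be that of all transcripts of its gene. The sequences under the probe sets, in these strains or in alternative transcripts, were not examined. Why probe sets of a gene disagreed was not tested.

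The 6 genes share no pathway. Paip1 and Prrc2c act in translation: the PAIP1 protein binds poly(A)-binding protein and the initiation machinery and stimulates translation, and PRRC2C is a large RNA-associated protein found in stress granules. Adi1 encodes acireductone dioxygenase, an enzyme of the methionine salvage pathway, and Pdxdc1 a protein with a pyridoxal phosphate-dependent decarboxylase domain. Camk2n1 encodes a small endogenous inhibitor of the calcium/calmodulin-dependent kinase CaMKII. Nbeal1 encodes a large BEACH-domain protein of the neurobeachin family, whose members act in membrane traffic. On arrays of this design the ending of a probe set's name gives its type: _at probe sets were designed to match a single transcript, _a_at probe sets alternative transcripts of 1 gene, and _s_at and _x_at probe sets can also match other sequences.

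Array medians lay between 5.46 and 5.49, and Pearson correlations between arrays over the 27022 tested probe sets between 0.965 and 0.995. AKR_F1 replicate 3 was closer to the DBA_F1 arrays (0.984 to 0.986) than to its own group (0.975 and 0.976). All 9 lung markers were above the filter level of 4.72, the mean signal below which the lowest 40% of probe sets lie, and their mean was 12.50 to 12.59 in AKR_F1 and 12.42 to 12.49 in DBA_F1. Markers of tissues near the lung were uneven. The mean of 9 squamous epithelium markers was 5.10, 5.002 and 8.91 in AKR_F1 and 8.48 to 9.13 in DBA_F1, and the mean of 9 skeletal muscle markers was 5.90, 5.46 and 9.64 against 9.02 to 9.49. AKR_F1 replicate 3 thus stood with DBA_F1 for the first pair of lists. The mean of 8 adipose markers was 6.48 to 7.47 in AKR_F1 and 8.28 to 9.37 in DBA_F1, and so separated the groups. The part of these tissues in the values below was not tested. Without AKR_F1 replicate 3, the difference of any of the 23 probe sets moved by at most 0.11 log2. That does not bear on these tissues, since without this array the squamous and muscle lists separate the groups as well.

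Of the 23 probe sets, 12 had the higher mean in AKR_F1 and 11 in DBA_F1. The arrays of the groups did not overlap for 19 of them, against 19.1% of all probe sets, and for 17 of the 18 that passed the filter, against 23.6% of tested probe sets. In the limma fit over all tested probe sets, 12 of the 18 were called at an adjusted p under 0.05, against 2.62% of tested probe sets. Of these, 6 were higher in AKR_F1 (background 1.57%) and 6 in DBA_F1 (background 1.05%). With 1 array left out 5 to 8 were called: 5 without AKR_F1 replicate 1, AKR_F1 replicate 2 or DBA_F1 replicate 2, 7 without either other DBA_F1 array and 8 without AKR_F1 replicate 3. Since the genes were picked on this contrast, nothing is read from these counts. The median absolute difference was 0.35 log2 over the 23 probe sets and 0.093 over all tested ones, and 4 of the 23 differed by more than 1 log2: a single probe set each of Pdxdc1 and Adi1 and a pair of Paip1. SDs within a group ran from 0.015 to 0.39.

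**Figure D1:**
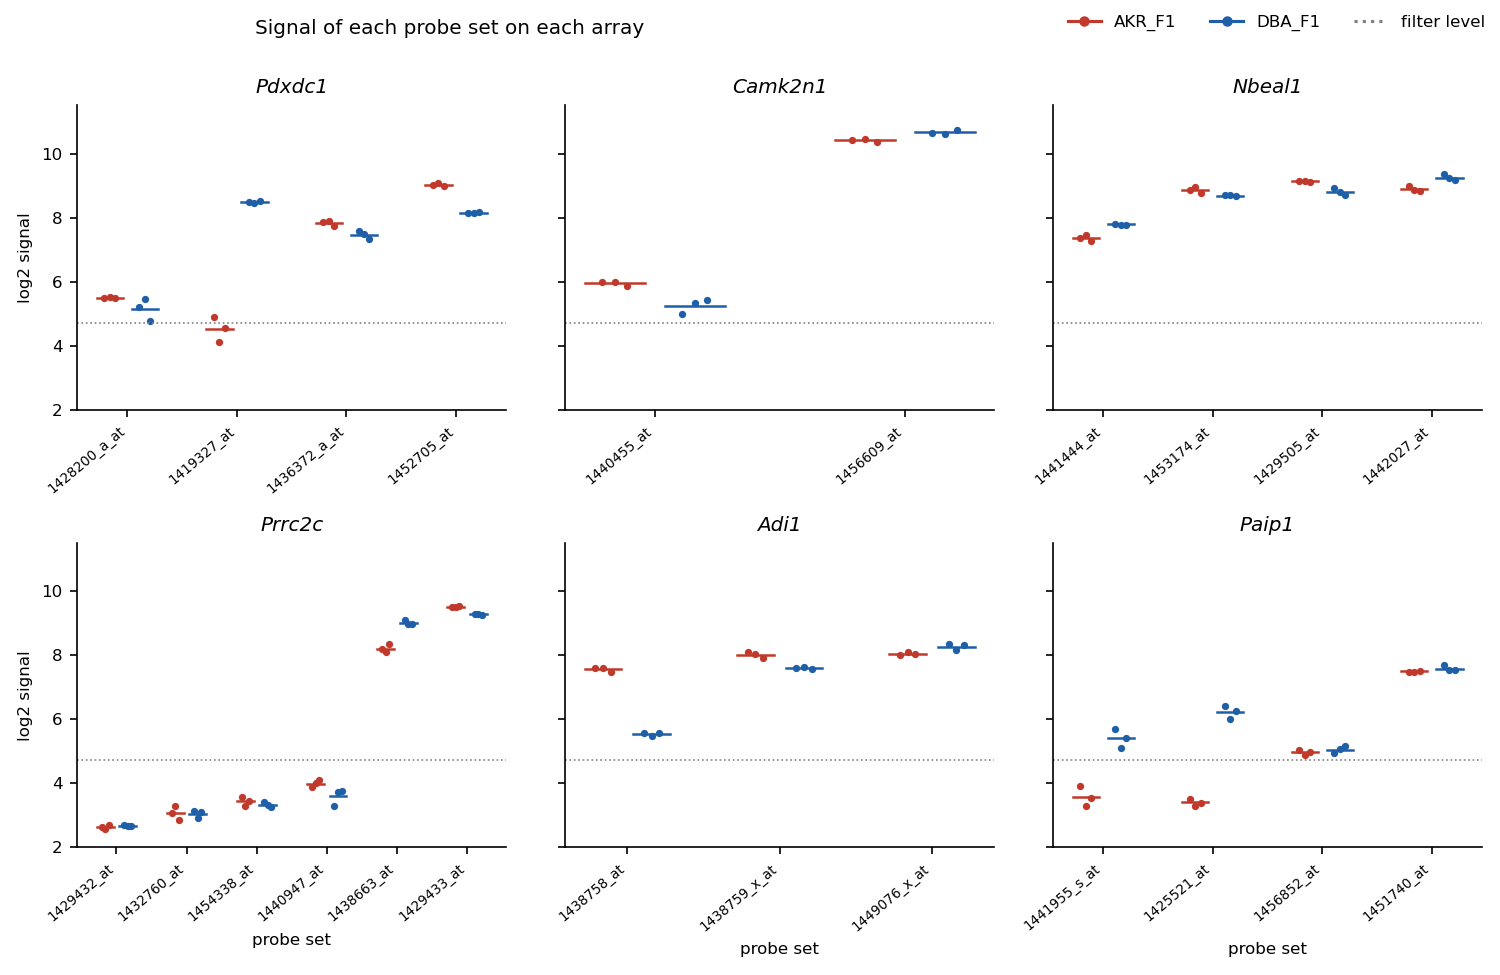
Signal of every probe set of the 6 genes (log2, vertical axis) on each of the 6 arrays, probe sets ordered by mean signal within a gene. Points are arrays, short lines are group means (AKR_F1 red, DBA_F1 blue, 3 arrays each), and the dotted line is the filter level of 4.72. The groups stand furthest apart for Pdxdc1 1419327_at, with 4.51 against 8.49.

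Pdxdc1 had the widest disagreement. Its 4 probe sets all passed the filter, and 3 were higher in AKR_F1 while the fourth was far higher in DBA_F1. That probe set, 1419327_at, had signals of 4.88, 4.10 and 4.55 on the AKR_F1 arrays and 8.48, 8.47 and 8.52 on the DBA_F1 arrays, here and below in the order of the replicate numbers. The lowest DBA_F1 array was thus far above the highest AKR_F1 array, and the AKR_F1 arrays scattered around the filter level. The AKR_F1 mean of 4.51 was below that level, so 1419327_at passed the filter only through DBA_F1. The difference was -3.98 ± 0.23 log2 (SE, n = 3 per group), or 15.8-fold. This size may not be exact, because signal this low may be partly background, which was not measured here. Only 0.0666% of tested probe sets had a larger absolute difference.

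The brightest Pdxdc1 probe set went the other way. For 1452705_at the signals were 9.01, 9.07 and 8.998 in AKR_F1 and 8.15, 8.13 and 8.18 in DBA_F1. Every AKR_F1 array was above every DBA_F1 array, with a difference of 0.87 ± 0.027 log2, or 1.83-fold. The remaining pair, both of the _a_at type, had differences of the same sign and nearly equal size: 0.35 ± 0.083 for 1436372_a_at (7.82 against 7.47) and 0.34 ± 0.20 for 1428200_a_at (5.49 against 5.15). Neither of them was called. Probe sets 1452705_at and 1428200_a_at were designed from the same sequence record, per the platform annotation, and lay 3.27 log2 apart in mean signal. Over the 6 arrays 1419327_at and 1452705_at correlated at -0.996 and 1452705_at and 1436372_a_at at 0.907. With groups that do not overlap, these correlations mostly reflect the group difference and its direction.

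Paip1 was the only 1 of the 6 whose probe sets all had the same sign, and its disagreement was in size. For 1425521_at the signals were 3.52, 3.30 and 3.37 in AKR_F1 and 6.40, 6.02 and 6.25 in DBA_F1. All 3 AKR_F1 arrays were below the filter level and all 3 DBA_F1 arrays well above it. The difference was -2.82 ± 0.13 log2, or 7.08-fold, again not exact in size at the low end. With a mean of 4.81 over all arrays, 1425521_at passed the filter only through DBA_F1.

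A second Paip1 probe set gave a similar picture. The signals of 1441955_s_at were 3.93, 3.29 and 3.54 in AKR_F1 and 5.71, 5.09 and 5.40 in DBA_F1. The groups did not overlap and the difference was -1.82 ± 0.26 log2. With a mean of 4.49 over all arrays this probe set did not pass the filter. It followed 1425521_at over the 6 arrays (r = 0.982), which share the group difference.

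The other Paip1 probe sets hardly differed between the groups. The brightest, 1451740_at, had 7.48, 7.48 and 7.52 in AKR_F1 and 7.69, 7.53 and 7.53 in DBA_F1. The groups lay next to each other without overlapping, and the difference was -0.091 ± 0.055 log2, close to the median absolute difference of tested probe sets. Probe set 1456852_at had 5.03, 4.87 and 4.98 against 4.93, 5.06 and 5.17, with overlapping groups and a difference of -0.092 ± 0.082. The probe sets at the ends of the Paip1 range, 1425521_at and 1451740_at, were designed from the same sequence record. Their differences lay 2.73 log2 apart, and only 2 of 5219 pairs of probe sets that share a gene and a record lay further apart.

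Adi1 had 3 probe sets, all above the filter level and none with overlapping groups. The dimmest, 1438758_at, had signals of 7.60, 7.60 and 7.49 in AKR_F1 and 5.57, 5.47 and 5.57 in DBA_F1. Arrays within each group were tight and the groups lay far apart, at 2.03 ± 0.051 log2, or 4.07-fold higher in AKR_F1. For 1438759_x_at the signals were 8.10, 8.04 and 7.90 in AKR_F1 and 7.59, 7.62 and 7.57 in DBA_F1. This is the same direction with a smaller difference of 0.42 ± 0.060.

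The brightest Adi1 probe set, 1449076_x_at, had 7.99, 8.11 and 8.04 in AKR_F1 and 8.34, 8.16 and 8.30 in DBA_F1. It was slightly higher in DBA_F1 (-0.22 ± 0.064) and was not called, while the other pair were. Probe sets 1438758_at and 1438759_x_at were designed from 1 sequence record and the third from another. The pair with a shared record lay 1.61 log2 apart in difference, and 10 of the 5219 such pairs on the array lay further apart. Over the 6 arrays that pair correlated at 0.967, and each correlated with 1449076_x_at at -0.850 and -0.875. These values mostly reflect the direction of the group differences, since the groups did not overlap for any Adi1 probe set.

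**Figure D2:**
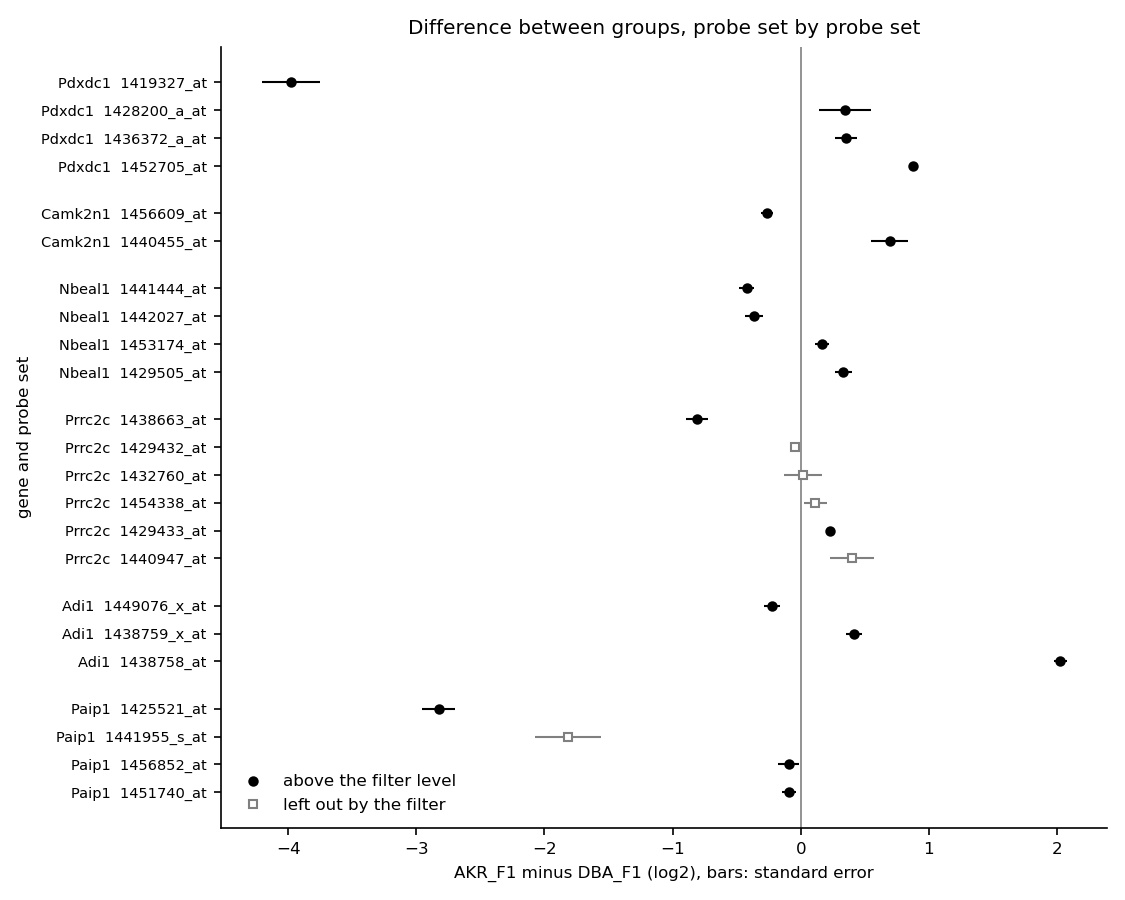
AKR_F1 minus DBA_F1 difference of each probe set (log2, horizontal axis) with its standard error as bars, by gene. Filled points passed the filter and open squares did not. Pdxdc1, Camk2n1, Nbeal1, Prrc2c and Adi1 have points on both sides of 0, and all 4 points of Paip1 lie below 0.

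Prrc2c had 6 probe sets, of which 2 passed the filter and these had opposite signs. Probe set 1438663_at had 8.19, 8.09 and 8.34 in AKR_F1 and 9.10, 8.98 and 8.96 in DBA_F1. The groups were clearly apart, with a difference of -0.81 ± 0.085 log2, or 1.75-fold higher in DBA_F1. The brightest probe set, 1429433_at, had 9.50, 9.50 and 9.53 in AKR_F1 and 9.30, 9.28 and 9.25 in DBA_F1. Replicates of 1429433_at were the tightest of the 23 probe sets in AKR_F1, and its difference was 0.23 ± 0.017 in the other direction. The 2 probe sets correlated at -0.945 over the 6 arrays, which mostly reflects their opposite group differences.

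The 4 Prrc2c probe sets below the filter had means of 2.65 to 3.79. Of these, 3 overlapped between the groups, with differences of -0.045 for 1429432_at, 0.019 for 1432760_at and 0.11 for 1454338_at. The fourth, 1440947_at, had 3.868, 4.003 and 4.104 in AKR_F1 and 3.28, 3.74 and 3.76 in DBA_F1, without overlap (0.40 ± 0.17). Its signal lay below the filter level on all arrays, and how much of it is background was not measured. The dimmest, 1429432_at, and the brightest, 1429433_at, were designed from the same sequence record and lay 6.74 log2 apart in mean signal. Signals of different probe sets depend on their oligonucleotides and are not amounts of transcript that can be set against each other.

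Nbeal1 showed an even split: 2 of its 4 probe sets were higher in AKR_F1 and 2 in DBA_F1. All 4 were bright, with means of 7.57 to 9.07, and none had overlapping groups. Toward DBA_F1 were 1441444_at, with 7.37, 7.46 and 7.26 against 7.81, 7.78 and 7.77, and 1442027_at, with 8.98, 8.85 and 8.84 against 9.35, 9.24 and 9.16. Their differences of -0.42 ± 0.057 and -0.36 ± 0.071 log2 were close to each other, and both probe sets were called.

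Toward AKR_F1 were 1429505_at, with 9.14, 9.15 and 9.12 against 8.91, 8.80 and 8.70, and 1453174_at, with 8.86, 8.95 and 8.76 against 8.70, 8.71 and 8.66. The difference was 0.33 ± 0.064 for 1429505_at, which was called, and 0.17 ± 0.057 for 1453174_at, which was not. Probe sets 1429505_at and 1453174_at were designed from 1 sequence record, and each of the other pair from a record of its own. Over the 6 arrays the correlation was 0.842 within the AKR_F1-high pair and 0.923 within the DBA_F1-high pair. Across the pairs it lay between -0.868 and -0.655. Since the groups did not overlap, the signs of these correlations mostly follow from the group differences, and nothing further is read from them. Nbeal1 was the only gene of the 6 with more than 1 tested probe set on each side of 0.

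Camk2n1 had only 2 probe sets, of very different brightness. Probe set 1456609_at was the brightest of all 23, with 10.42, 10.46 and 10.35 in AKR_F1 and 10.65, 10.62 and 10.74 in DBA_F1. It was higher in DBA_F1 on every array by a small margin (-0.26 ± 0.047 log2). Probe set 1440455_at had 5.98, 5.99 and 5.85 in AKR_F1 and 4.97, 5.35 and 5.42 in DBA_F1. Here AKR_F1 was higher, at 0.69 ± 0.15 log2 or 1.62-fold, with DBA_F1 replicate 1 the lowest array. The probe sets lay 4.95 log2 apart in mean signal and came from different sequence records.

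The probe sets of a gene can also be compared within each array, which removes any scaling shared by an array. For each gene the signal of the probe set with the lowest difference was subtracted from that with the highest. For Pdxdc1 this value was 4.13, 4.98 and 4.45 in AKR_F1 and -0.33, -0.34 and -0.34 in DBA_F1, with the AKR_F1 values resting on a signal near the filter level. For Adi1 it was -0.48 ± 0.085 (SD, n = 3) in AKR_F1 and -2.73 ± 0.039 in DBA_F1, and for Paip1 4.09 ± 0.12 and 1.36 ± 0.13. The Paip1 values in AKR_F1 rest on a signal below the filter level. Since signals of different probe sets are not comparable as amounts, only the change of this value between the groups is used below. The values were -4.21 ± 0.12 and -5.42 ± 0.35 for Prrc2c (with the dim 1440947_at), -4.47 ± 0.031 and -5.43 ± 0.22 for Camk2n1, and 1.77 ± 0.078 and 1.02 ± 0.089 for Nbeal1. No gene had overlapping groups, which the choice of genes and of probe sets largely fixes.

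**Figure D3:**
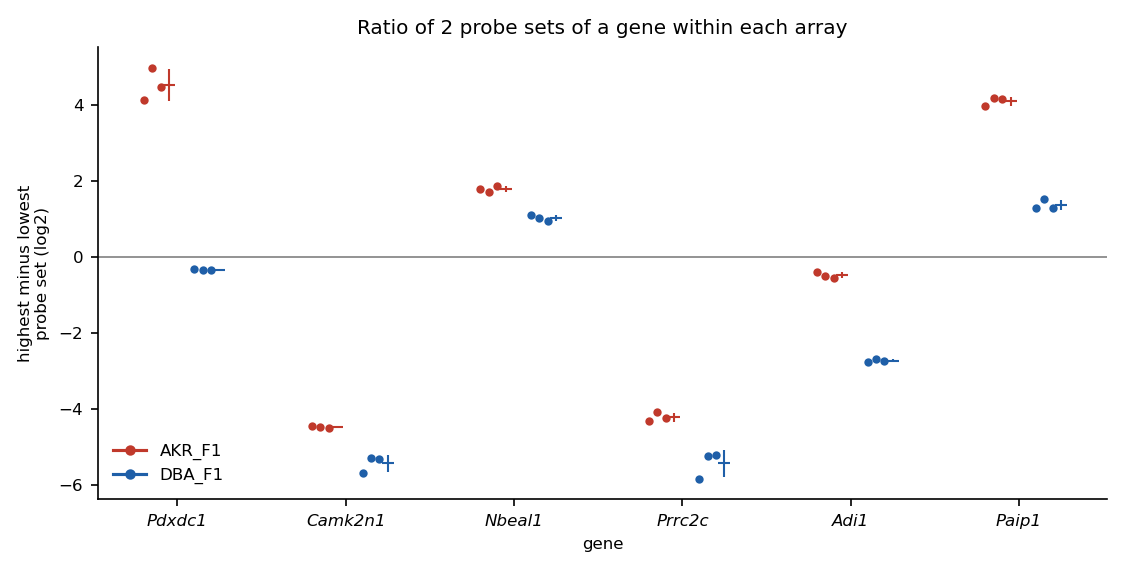
Signal of the probe set with the highest group difference minus that with the lowest, within each array (log2, vertical axis), for each gene. Points are arrays, crosses are group means with SD bars (AKR_F1 red, DBA_F1 blue, 3 arrays each). The means of Pdxdc1 stand furthest apart, at 4.52 in AKR_F1 and -0.34 in DBA_F1.

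The distance between those 2 group means is called the gap of a gene below. It was 4.86 log2 for Pdxdc1, 2.73 for Paip1, 2.25 for Adi1, 1.21 for Prrc2c, 0.96 for Camk2n1 and 0.76 for Nbeal1. The Prrc2c gap rests on a probe set below the filter level, and among its probe sets that passed it was 1.04. Over all 9010 genes with 2 or more probe sets the median gap was 0.14 and the 99th percentile 1.02, and 98 genes had a gap over 1 log2. Ranked by gap, the genes stood at 4 (Pdxdc1), 15 (Paip1), 19 (Adi1), 58 (Prrc2c), 106 (Camk2n1) and 178 (Nbeal1), with Prrc2c at 47 of 5930 genes when only tested probe sets are ranked, and 172 other genes had a gap as large as that of Nbeal1 or larger. The neighbours of Nbeal1 in this order were Stk17b (0.761) and Zmym5 (0.757) above it and Zfp729a (0.756) and Clca1 (0.754) below it.

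**Figure D4:**
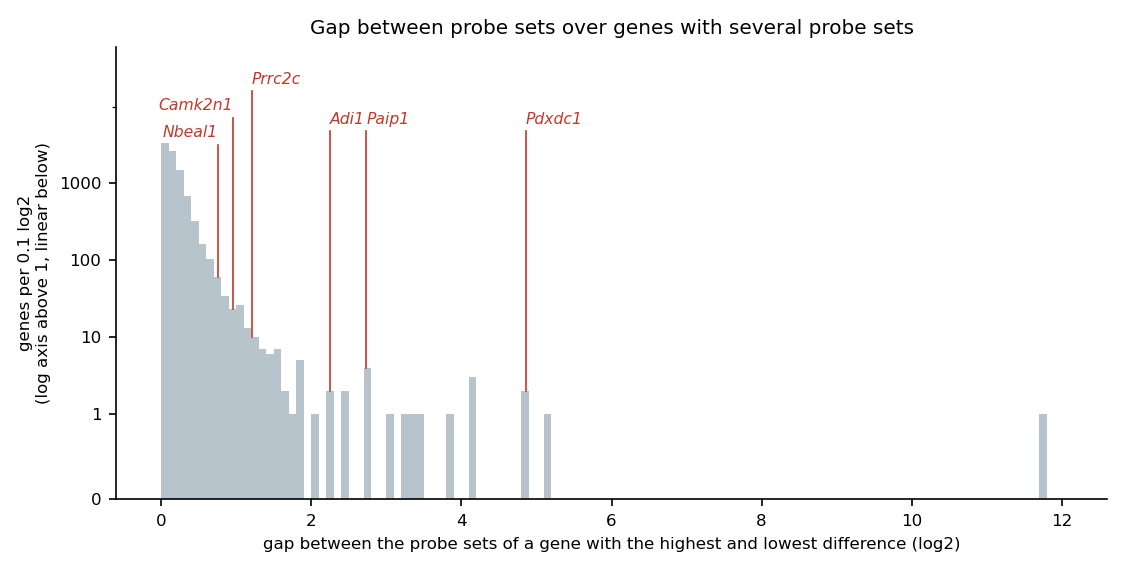
Number of genes (vertical axis, logarithmic above 1) by the gap between their probe sets with the highest and lowest group difference (log2, horizontal axis, bins of 0.1), over 9010 genes with several probe sets. Red lines mark the 6 genes, from Nbeal1 at 0.76 to Pdxdc1 at 4.86, against a median of 0.14.

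A gene with more probe sets has more room for a wide gap: the median rose from 0.091 for genes with 2 probe sets to 0.27 for those with 6 or more. Against genes with the same number, Pdxdc1 had the widest gap of 1093 genes with 4 probe sets, of which 2 had a wider gap than Paip1 and 35 a wider gap than Nbeal1. A wider gap than that of Prrc2c, which rests on the dim 1440947_at, was found in 2 of 244 genes with 6 probe sets. The same held for 9 of 2366 genes with 3 probe sets for Adi1 and 26 of 4695 with 2 for Camk2n1. These ranks follow from the choice of genes.

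Opposite signs alone were common, and opposite calls were not. Both signs occurred in 48.7% of the 9010 genes and in 5 of the 6 described here. Calls in both directions occurred in 8 of 5930 genes with 2 or more tested probe sets, or 0.135%, and 4 of the 8 were Pdxdc1, Camk2n1, Nbeal1 and Prrc2c, which were chosen for it. The other 4 were H2-D1, Xaf1, Zfp945 and H2-Q5. Of the members, only Pdxdc1 was called in both directions in each fit that left out 1 array. The whole-array count was then 3 without AKR_F1 replicate 1 or AKR_F1 replicate 2, 4 without DBA_F1 replicate 2 and 5 without DBA_F1 replicate 3.

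The type of a probe set and its sequence record were not used in the choice of genes, but the differences set beside them here were. Of the 23 probe sets 18 were of the _at type, 2 _a_at, 1 _s_at and 2 _x_at, and _at probe sets made up 77.2% of all probe sets with 1 symbol. The 12 called probe sets were 11 _at and 1 _x_at, and on the whole array 2.49% of tested _at and 2.79% of tested _x_at probe sets were called. Pairs from 1 record had a median distance in difference of 0.077 log2 over 5219 pairs, and pairs from different records of the same gene 0.10 over 20112 pairs. The 6 genes held 6 pairs from 1 record, and their distances were 2.73 for Paip1, 1.61 for Adi1, 0.53 for Pdxdc1, 0.28 and 0.094 for Prrc2c and 0.17 for Nbeal1. A distance over 1 log2 was found in 20 of the 5219 pairs, and those of Paip1 and Adi1 are 2 of these. Since the genes were chosen on these differences, nothing is read from the place of their pairs.

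The value that stands for a gene depends on how its probe sets are combined. The genes were chosen on sign, size and brightness, so nothing is read from the next shares. The brightest probe set had the largest absolute difference in 0 of the 6 genes, against 38.3% of the 9010, and the smallest in 3 of the 6, against 39.6%. The brightest probe set and the mean over probe sets had opposite signs in 4 of the 6 genes and in 19.7% of the 9010. For Pdxdc1 the brightest gave 0.87, the mean -0.60 and the median 0.35. Adi1 gave -0.22 by the brightest, 0.74 by the mean and 0.42 by the median, and Camk2n1 gave -0.26 by the brightest and 0.21 by the mean. For Prrc2c the values were 0.23, -0.015 and 0.066, for Nbeal1 -0.36, -0.071 and -0.098, and for Paip1 -0.091, -1.21 and -0.95.

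Related genes of the same pathways and families were each counted by their brightest tested probe set. Of 54 tested genes in 6 lists, 1 (1.85%) was called, near the 2.48% of all 13202 genes tested. In limma 9 of them (16.7%) had an unadjusted p under 0.05, near the 19.1% of all genes. The called gene was Hdc, histidine decarboxylase, which makes histamine and belongs to the pyridoxal phosphate-dependent decarboxylases. Its signals were 9.37 ± 0.076 (SD, n = 3) in AKR_F1 and 8.77 ± 0.23 in DBA_F1, a difference of 0.60 ± 0.11 (SE, limma adjusted p = 0.0462), and both of its probe sets were called. This call was lost without AKR_F1 replicate 1 (limma adjusted p = 0.176), AKR_F1 replicate 2 (0.159), DBA_F1 replicate 2 (0.150) or DBA_F1 replicate 3 (0.104). The other 4 tested decarboxylases included Ddc, which makes dopamine and serotonin (0.65 ± 0.14, limma adjusted p = 0.0675).

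Around Adi1, 0 of 11 tested methionine salvage and polyamine genes were called (1 at an unadjusted p under 0.05 in limma), with a median of -0.011. Kyat1, a transaminase, had -0.67 ± 0.26 (limma adjusted p = 0.238) and Mtap, the phosphorylase that starts the salvage pathway, 0.11 ± 0.073. The AKR_F1 arrays of Kyat1 had 5.86, 5.93 and 6.87, the last within the DBA_F1 range of 6.76 to 7.08. Differences of its 4 probe sets ran from -0.67 to 0.19. Around Paip1, 0 of 13 poly(A)-binding and initiation genes were called (3 at an unadjusted p under 0.05), with a median of 0.0069. The initiation factor subunit Eif3a had 0.20 ± 0.083 and the poly(A)-binding protein Pabpc4 -0.17 ± 0.076. Probe sets other than the brightest reached 1.24 for Eif4g3 and -0.97 for Eif4h, whose brightest had 0.14 and -0.026. No probe set of either gene was called. Around Prrc2c, 0 of 10 stress granule genes and PRRC2 paralogues were called (0 at an unadjusted p under 0.05), among them Usp10 (0.12) and Tial1 (0.070). By its brightest probe set Tia1, an RNA-binding protein of stress granules, had -0.030 ± 0.077, but another of its 6 probe sets was called. That probe set, 1431708_a_at, had 6.23, 6.16 and 6.34 in AKR_F1 and 3.65, 3.73 and 3.29 in DBA_F1 (2.68 ± 0.13, limma adjusted p = 0.000205). Its DBA_F1 arrays lay below the filter level and its mean over all arrays was 4.90, so it passed the filter only through AKR_F1. The size of its difference is therefore not exact. Tia1 was singled out after its values were seen, so this p is no independent support.

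Around Camk2n1, 0 of 7 CaMK and related genes were called (1 at an unadjusted p under 0.05 in limma). The upstream kinase Camkk2 had 0.23 ± 0.072 and Camk1 0.16 ± 0.079, and the paralogue Camk2n2 -0.11 ± 0.20. Around Nbeal1, 0 of 8 BEACH genes were called (2 at an unadjusted p under 0.05), with a median of 0.099 against 0.015 over all genes. Its relatives Nbea (0.39 ± 0.10) and Wdfy4 (0.30 ± 0.086) had the largest differences of this list.

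The nearest genes along the chromosome were looked at after the values were seen. Of 24 neighbours, 2 with a tested probe set on each side of each gene, 3 were called, against 2.48% of all genes. These were Nnt, the mitochondrial nicotinamide nucleotide transhydrogenase, next to Paip1, Tmem267, second from Paip1 on the other side, and Cda, cytidine deaminase, second from Camk2n1. All 3 were higher in AKR_F1: Nnt by 0.35 ± 0.047 (limma adjusted p = 0.0147), Tmem267 by 1.23 ± 0.10 (limma adjusted p = 0.00264) and Cda by 1.08 ± 0.16 (limma adjusted p = 0.0197). Of the 3 probe sets of Nnt 1 was called, while Tmem267 and Cda have 1 each. Cda had a mean of 5.40 in AKR_F1 and of 4.32 in DBA_F1, the latter below the filter level. It thus passed the filter only through AKR_F1, and the size of its difference is not exact. Between Paip1 and Tmem267 lies 4833420G17Rik, whose brightest probe set had 0.31 ± 0.066 (limma adjusted p = 0.0647) and of whose 5 probe sets 1 was called. With 1 array left out, Tmem267 was called in all 6 fits, Nnt in 3 and Cda in 3. Nnt was lost without AKR_F1 replicate 1 (limma adjusted p = 0.0886), AKR_F1 replicate 2 (0.0749) or DBA_F1 replicate 2 (0.0691). Cda was lost without AKR_F1 replicate 1 (0.0803), AKR_F1 replicate 2 (0.0945) or DBA_F1 replicate 3 (0.0503). The Paip1 probe sets had their higher signal in DBA_F1, opposite to Nnt and Tmem267. None of the 16 neighbours of Pdxdc1, Nbeal1, Prrc2c and Adi1 was called, and the largest of their differences was that of Fmo4 beside Prrc2c (-0.60 ± 0.13, limma adjusted p = 0.0743).

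Probe sets of other genes with the most similar pattern were found by Pearson correlation over the 6 arrays. With 2 groups that do not overlap, such a correlation mostly reflects the group difference and the direction. For Adi1 1438758_at they were Sirpb1a (r = 0.999, difference 1.81) and the Pdxdc1 probe set 1452705_at (r = 0.999). For Paip1 1425521_at they were Xaf1 (0.999, -3.97), a gene itself called in both directions, and Tnn (0.998, -2.21). Pdxdc1 1419327_at was most like Hnf4a (0.997, -0.22) and Spint1 (0.996, -0.55), and Prrc2c 1438663_at most like Zfp282 (0.997, -0.22) and H2-Ea (0.996, -2.04). Nbeal1 1441444_at was most like Gatad2b (0.997) and Rogdi (0.996), and Camk2n1 1440455_at most like Tnks2 (0.999) and Brd8 (0.993).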

How the data were processed

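The table holds log2 values, 1 per probe set and array, deposited by the authors. MAS5 and RMA are given, per the submitters' processing notes, with neither a version nor a role in making the table. Arrays were already scaled and were used as deposited. After removal of 64 control probe sets, 45037 were left, of which 34945 had 1 gene symbol in the platform annotation, 932 several and 9160 none. Only those with 1 symbol were named, and annotated symbols can be old. The GRCm38.p6 RefSeq gene table served only for gene order, and 34741 of the probe sets were found in it.

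For tests, probe sets in the lowest 40% by mean signal were left out, and 27022 were fitted with limma 3.58.1 in R 4.3.3 (lmFit, eBayes with a trend, two-sided, group as the only term, Benjamini-Hochberg adjustment over all of them, called under 0.05). The fit was also run on simulated arrays with independent noise. That checks the code and not the calls made here, since AKR_F1 replicate 3 stood closer to the other group. SEs of member probe sets come from the group SDs without moderation, and those of other genes from limma. A gene outside the 6 is represented by its brightest tested probe set. The number of arrays limits the precision, and p-values measure the spread between these samples, which may be technical.

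The members and lists were chosen with earlier results of these data known. Genes named outside the members are the called genes of each list or otherwise its 2 largest differences, the 2 most correlated per member, and the neighbours in gap. Chromosomal neighbours, Ddc, Tia1, Camk2n2, Eif4g3, Eif4h and the genes called in both directions were named after their values were seen. Alternatives were quantile normalization, median centring, other filters, eBayes without a trend or robust, array weights, a replicate block and leaving out each array.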

Additional observations from a re-analysis of the deposited data

How the results depend on the processing

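The gaps of all 6 genes kept their direction and moved by less than 1 replicate SD under quantile normalization, median centring and the filter, and the block leaves a difference of means as it is in this balanced design. With 1 array left out they ran from 4.63 to 5.05 (Pdxdc1), 2.69 to 2.81 (Paip1), 2.20 to 2.28 (Adi1), 1.01 to 1.32 (Prrc2c), 0.83 to 1.03 (Camk2n1) and 0.71 to 0.80 (Nbeal1). Of the 23 probe sets 22 kept their sign in these 8 settings, the exception being the dim Prrc2c 1432760_at. Calls depended more on the setting. Pdxdc1 1419327_at and 1452705_at, Prrc2c 1438663_at and Adi1 1438758_at were called in all 14 settings and Paip1 1425521_at in all 13 that tested it. Since the genes were picked on this contrast in these arrays, repeated calls are no support for them. Of the 12 called probe sets, 5 to 8 were called with 1 array left out and 6 with the replicate block. Genes called in both directions numbered 8, and 5 without a trend, 4 with the replicate block and 3 to 7 with 1 array left out (3 without AKR_F1 replicate 1 or 2, 4 without DBA_F1 replicate 2, 5 without DBA_F1 replicate 3). In each of these alternatives, and with no filter (6 such genes), Pdxdc1 was the only such gene among the 6. Camk2n1 was also lost under quantile normalization, median centring and with the lowest 60% left out. Camk2n1 1456609_at was called in 3 of 14 settings and Prrc2c 1429433_at in 5 of 14. Both were called in 0 of 6 fits with 1 array left out. Called probe sets numbered 707, 1198 with array weights, 539 with the replicate block and 198 to 1171 with 1 array left out (198, 199 and 1171 without AKR_F1 replicates 1, 2 and 3, and 249 without DBA_F1 replicate 2). No pairing of same-numbered arrays was seen: their deviations correlated at 0.311, -0.228 and -0.05, against -0.275 to 0.312 for the other combinations. With 3 arrays per group this check cannot exclude pairing. With the block Nnt had a limma adjusted p of 0.0522. The decarboxylase count of 1 became 2 with array weights, 0 without a trend and 0 to 2 with 1 array left out (2 without AKR_F1 replicate 3, and 0 without replicate 1 or 2 of AKR_F1 or replicate 2 or 3 of DBA_F1). The methionine salvage count was 0 to 1, with 1 without AKR_F1 replicate 3, and the stress granule count was 1 by the most variable probe set. The cause of these shifts was not tested. Signals below the filter level are not separated from background, which limits the sizes for Pdxdc1 1419327_at, Paip1 1425521_at and Cda. The same limit holds for the gap of Prrc2c, which rests on 1440947_at.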
